A study of Homo sapiens with 12 samples.

Results

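The genes described here encode the proteins of the mitochondrial ribosome. They were chosen by name, as every protein-coding gene whose symbol is MRPL or MRPS followed by a number. The rule gave 78 genes, of which 76 had an entry in the deposited tables, out of 33704 genes with an entry in at least 1 table. MRPL45 and MRPS21 are not analysed here.

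The mitochondrial ribosome translates the few messenger RNAs of the mitochondrial genome, which encode core subunits of the respiratory chain. All its proteins are encoded in the nucleus, made in the cytosol and imported, whereas its ribosomal RNAs are made in the organelle. It has a large subunit, which forms peptide bonds, and a small subunit, which decodes the messenger. Many of its proteins descend from bacterial ribosomal proteins, and others were added in the mitochondrial lineage. Of the 76 genes, 50 were counted as large-subunit and 26 as small-subunit genes, with MRPS30 and MRPS18A placed in the large subunit by structure despite their names. The 26 include MRPS36 by its name only, since its protein was later found in the oxoglutarate dehydrogenase complex. A bacterial counterpart is known for 45, and 31 are specific to mitochondria.

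The material was messenger RNA of the leukaemic human T-cell line Jurkat, in 12 libraries forming 6 groups of 2. TAL1-control and TAL1-KD were Jurkat cells with a doxycycline-inducible shRNA against the transcription factor TAL1, without doxycycline or with 5 µg/ml for 72 h. UTX-control and UTX-KD were the same design with an shRNA against UTX, the histone demethylase encoded by KDM6A. J4-control and J4-2uM were Jurkat cells given DMSO vehicle or 2 µM GSK-J4, a small-molecule inhibitor of KDM6 demethylases, for 72 h. The shRNA cells, controls included, were kept in Tet-free serum with blasticidin and G418, and doxycycline itself was given only to the knockdown groups, so its effect and that of the shRNA cannot be told apart. Whether the 2 libraries of a group came from separate cultures is not stated, so p-values here reflect only the spread between libraries, which could be technical.

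Depth was 55524079 to 82534711 counted reads per library. Normalised read counts are given in CPM, the usual scaling of reads to library size, with TMM factors within a comparison. TAL1 stood at 254 and 257 CPM in TAL1-control and at 232 and 254 in TAL1-KD, a log2 fold change of -0.07 (edgeR adjusted p = 0.490). KDM6A stood at 30.9 and 31.3 CPM in UTX-control and at 29.3 and 29.4 in UTX-KD, a log2 fold change of -0.08 (edgeR adjusted p = 0.103). Neither targeted mRNA was shown to be lower in its own comparison, so these comparisons are named by their labels. TAL1 was called lower in the UTX-labelled comparison (-0.12, edgeR adjusted p = 0.001555) and with GSK-J4 (-0.66, edgeR adjusted p = 6.022e-10). KDM6A was not called in the TAL1-labelled comparison and was higher with GSK-J4 (0.44, edgeR adjusted p = 1.244e-07). All 10 T-lineage markers examined were detected, with summed levels of 2106 to 4033 CPM, while of 11 matched markers of other blood cells only CD79A passed 5 CPM in a group mean. The markers also moved: the T-lineage sum was 2757 to 2872 CPM in TAL1-control and 3461 to 4033 in TAL1-KD. Of the 10 T-lineage markers, 4 were called higher in that comparison, 0 lower and 6 not called. In the UTX-labelled comparison 8 were called higher and 1 lower, and with GSK-J4 4 were called higher and 5 lower. Of all genes tested, 26.3% were called higher and 27.9% lower in the TAL1-labelled comparison. These shares were 25.2% and 25.3% in the UTX-labelled one and 37.9% and 36.9% with GSK-J4. The GSK-J4 counts of the T-lineage markers were thus near the shares of all genes. With GSK-J4, CD79A went from 39.5 and 39.6 to 92.0 and 83.7 CPM, and 4 of the 6 other-cell markers tested were called higher and 0 lower. Their part in the results below was not tested. The TAL1-KD replicates stood further apart than any other pair, with an SD of 0.231 on the log2 scale, against 0.0627 to 0.0853 in the other 5 groups.

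The mitochondrial ribosomal protein genes were among the better expressed genes. In the 6 control libraries their median level was 43.05 CPM per kilobase of transcript, against 11.43 for the 13600 protein-coding genes kept, and 71 of 76 lay above that median. MRPL51, MRPL49, MRPL37 and MRPL23 had the highest levels per kilobase, at 179 ± 40.1, 166 ± 22.1, 120 ± 11.2 and 116 ± 39.9 (SD over 6 control libraries of 3 cell populations). MRPL51 and MRPL49 did not differ beyond their summed SDs, and neither did MRPL37 and MRPL23. The lowest were MRPL50 at 7.88 ± 1.90, MRPL53 at 4.91 ± 0.278, MRPS17 at 4.67 ± 1.48 and MRPL30 at 0.158 ± 0.0805 CPM per kilobase. On the same strand, MRPL53, MRPS17 and MRPL30 share 45.2%, 27.0% and 19.5% of their exon bases with other genes, and MRPL50 shares none. The part of shared exons in these low levels was not tested. MRPL30 was counted with 10, 12 and 32 reads in the first control library of each comparison, and its fold changes carry standard errors of 0.28 to 0.38.

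On a scale shared by the 12 libraries, the summed level of the 76 genes already differed between the 3 control groups. It was 3407 and 3520 CPM in TAL1-control, 4782 and 4752 in UTX-control and 4224 and 4263 in J4-control. TAL1-KD stood at 4148 and 4650 CPM, above its controls but below both UTX-control libraries. UTX-KD stood at 4321 and 4235 CPM and J4-2uM at 3611 and 3510, each below its own controls. Cell population, medium and library preparation cannot be told apart between the control groups.

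**Figure D1:**
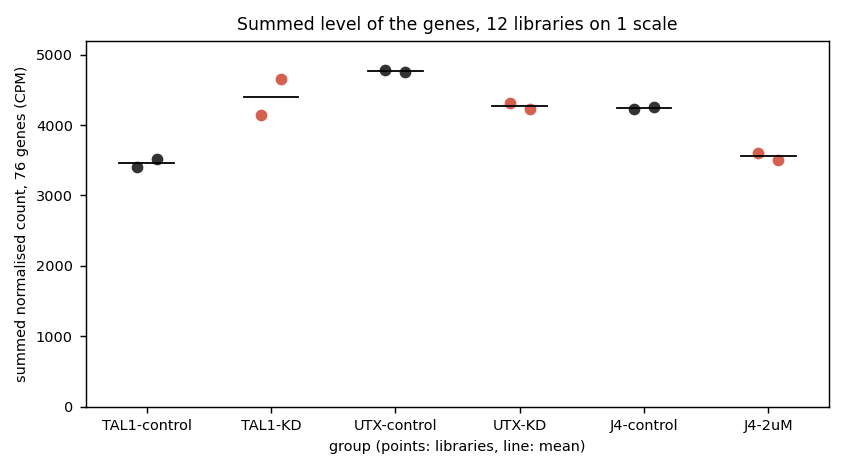
Summed normalised count of the 76 mitochondrial ribosomal protein genes (y axis, CPM on 1 scale for all libraries) in each group (x axis); points are libraries and lines are means of 2. TAL1-KD lies above TAL1-control, while UTX-KD and J4-2uM lie below their controls.

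In the TAL1-labelled comparison, most mitochondrial ribosomal protein genes were higher in the knockdown-labelled libraries. Among 76 tested, 41 rose, 6 fell and 29 did not pass the test (edgeR quasi-likelihood test, Benjamini-Hochberg adjusted over all genes, threshold 0.05). Over all genes tested, 26.3% rose and 27.9% fell. The median log2 fold change of the 76 was 0.33, against -0.022 over all genes, and 18 of the 76 (23.7%) rose by over 1.5 times, against 12.7% of all genes. Only MRPL1 fell by as much, against 19.2% of all genes. Both TAL1-KD libraries lay above both controls in 54 of the 76 and below both in 12, against 38.8% and 42.2% of all genes. Within this comparison the summed level went from 3232 ± 69.3 to 4037 ± 296 CPM (SD, n = 2), an increase of 24.9%.

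The rise was larger in sum for the large subunit, at 30.6%, than for the small subunit, at 14.4%. Among 50 large-subunit genes 29 rose and 2 fell, and of 26 small-subunit genes 12 rose and 4 fell. The ratio of the large to the small sum was 1.84 and 1.86 in TAL1-control and 2.06 and 2.15 in TAL1-KD, without overlap. Of the 45 genes with a bacterial counterpart 27 rose and 4 fell, and of the 31 specific to mitochondria 14 rose and 2 fell. The differences between these classes were not tested.

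MRPL52, a mitochondria-specific large-subunit protein, stood at 32.0 and 33.2 CPM in TAL1-control and at 63.4 and 77.2 in TAL1-KD. Both TAL1-KD libraries were far above both controls, and the log2 fold change was 1.11 (SE 0.11, edgeR adjusted p = 0.000414). MRPL34, a small protein of the bacterial L34 family, stood at 49.7 and 52.0 CPM in controls and at 90.6 and 125 in TAL1-KD. Its knockdown-labelled libraries did not overlap the controls but differed from each other, and the log2 fold change was 1.08 (SE 0.14, edgeR adjusted p = 0.000964). MRPL36, of the bacterial L36 family, went from 13.3 and 14.9 to 25.6 and 34.3 CPM, a log2 fold change of 1.09 (SE 0.15). MRPL41 rose by 0.97 (SE 0.15), MRPL20 by 0.82 (SE 0.09) and MRPL55 by 0.82 (SE 0.09) on the log2 scale. These 6 largest increases were all in large-subunit genes, which make up 50 of the 76. MRPS12, a protein of the decoding centre, had the largest increase in the small subunit, from 16.4 and 17.7 to 25.8 and 28.0 CPM. Its log2 fold change was 0.66 (SE 0.10, edgeR adjusted p = 0.00147). MRPS24, MRPS23, MRPS6 and MRPS15 were within that SE of it, at 0.655, 0.645, 0.644 and 0.624 on the log2 scale.

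The 6 decreases moved against the majority. MRPL1, which forms part of the stalk near the tRNA exit site, stood at 13.4 and 13.1 CPM in TAL1-control and at 6.17 and 4.44 in TAL1-KD. Both were less than either control, and the log2 fold change was -1.32 (SE 0.16, edgeR adjusted p = 0.000795). MRPS9 fell by 0.42 (SE 0.10), MRPS27, a pentatricopeptide repeat protein, by 0.40 (SE 0.08), MRPS31 by 0.39 (SE 0.09), MRPS10 by 0.33 (SE 0.10) and MRPL47 by 0.29 (SE 0.08) on the log2 scale. Of the 6, 4 are small-subunit genes, which make up 26 of the 76.

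Transcript length and GC content moved with the response in this comparison. The median transcript length of the genes was 1126.5 bases, and 62 of the 76 fell in the shortest of 4 equal bins of protein-coding genes. That bin as a whole had a median log2 fold change of 0.168 with 39.1% higher, and the longest bin had -0.091. Across 4 GC bins the median of protein-coding genes ran from -0.202 to 0.168, and across the 76 genes the response had r = 0.45 (rho = 0.441) with GC content, a description over genes of the same libraries. After the GC and length trends of each library were removed, 37 of the 76 rose, 5 fell and the median was 0.24. The MRPL23 value then went from 0.37 to -0.02, and the MRPL12 value from 0.32 to 0.06. Leaving out TAL1-control replicate 1 gave 25 higher and 3 lower, and leaving out TAL1-control replicate 2 gave 1 lower.

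**Figure D2:**
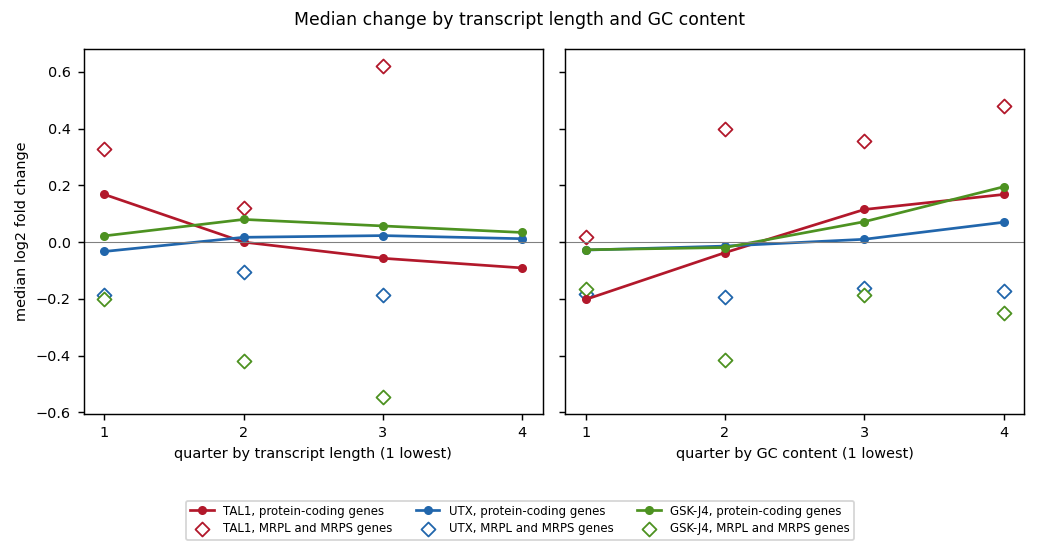
Median log2 fold change (y axis) of protein-coding genes (lines) and of the MRPL and MRPS genes (diamonds) by bin (4 equal bins) of transcript length (left) and GC content (right), 1 being the lowest. In the TAL1-labelled comparison the protein-coding medians run from 0.168 in the shortest to -0.091 in the longest bin, and the 62 genes in the shortest bin have a median of 0.33.

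In the UTX-labelled comparison the same genes were mostly lower, by small amounts. Of 76, 3 rose and 54 fell, and 19 did not pass the test, while over all genes tested 25.2% rose and 25.3% fell (edgeR). The median log2 fold change was -0.182, against 0.009 over all genes. The summed level went from 4783 ± 18.4 to 4227 ± 62.2 CPM (SD, n = 2), a change of -11.6%, with -11.6% in the large and -11.7% in the small subunit. In 62 of the 76 genes (81.6%) both UTX-KD libraries lay below both controls, as they did in 36.1% of all genes tested, and in 4 they lay above both, against 37.9%. In the 26 small-subunit genes 18 fell and none rose, with every log2 fold change below 0.

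MRPS28, a small-subunit protein related to bacterial S1, stood at 22.2 and 21.0 CPM in UTX-control and at 12.2 and 11.1 in UTX-KD. Its 2 groups were widely separated, at -0.89 on the log2 scale (SE 0.06, edgeR adjusted p = 1.107e-09), and it was the only one of the 76 to fall by over 1.5 times, which 2.82% of all genes did. By edgeR, 0 of the 76 rose by over 1.5 times, against 5.06% of all genes. In GENCODE 29, 35.8% of the exon bases of MRPS28 are shared with another gene on the same strand. The annotation used for counting is not given, and the part of shared exons in this value was not tested. MRPL1 went from 36.3 and 34.5 to 24.2 and 25.6 CPM, a log2 fold change of -0.51 (SE 0.05). MRPL54 fell by 0.45 (SE 0.05), MRPL4 by 0.41 (SE 0.04), MRPS18B by 0.41 (SE 0.03) and MRPS12 by 0.37 (SE 0.04) on the log2 scale.

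The 3 increases in the UTX-labelled comparison were slight. MRPL49 stood at 79.8 and 81.5 CPM in UTX-control and at 86.5 and 85.5 in UTX-KD, which is 0.09 on the log2 scale (SE 0.03, edgeR adjusted p = 0.0209). MRPL10, of the stalk base, and MRPS30 had log2 fold changes of 0.09 each, with adjusted p of 0.0314 and 0.0417 by edgeR. With the Wald test of DESeq2 no gene of the 76 was higher, and leaving out UTX-control replicate 1 also gave 0. With UTX-control replicate 2 left out, 1 was higher. The fit over all 12 libraries called 0 higher and 33 lower, and the replicate block called 1 higher and 54 lower.

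With GSK-J4 the genes were again mostly lower, and the range of change was wider. Of 76, 15 rose, 49 fell and 12 did not pass the test, while over all genes tested 37.9% rose and 36.9% fell (edgeR). The median log2 fold change was -0.274, against 0.008 over all genes, and 21 of the 76 (27.6%) fell by over 1.5 times, against 17.8% of all genes. Rises of that size were called in 2 of the 76, MRPL49 and MRPL38, against 18.8% of all genes. Both J4-2uM libraries lay below both controls in 50 of the 76 and above both in 19, against 43.1% and 44.1% of all genes. The summed level went from 4598 ± 33.2 to 3872 ± 52.3 CPM (SD, n = 2), a change of -15.8%. It was -13.1% for the large subunit, with 12 genes higher and 31 lower, and -20.8% for the small subunit, with 3 higher and 18 lower. The ratio of the large to the small sum was 1.83 in both J4-control and 2.01 in both J4-2uM libraries.

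MRPL1 stood at 35.1 and 37.3 CPM in J4-control and at 12.1 and 11.5 in J4-2uM. This was the largest decrease among the 76, at -1.62 on the log2 scale (SE 0.05, edgeR adjusted p = 1.531e-11). MRPS17, of the bacterial S17 family, went from 10.1 and 11.3 to 3.84 and 3.80 CPM, a log2 fold change of -1.49 (SE 0.08). Of its exon bases, 27.0% are shared with other genes on the same strand. MRPL54 went from 19.4 and 18.1 to 6.31 and 7.002 CPM, a log2 fold change of -1.49 (SE 0.07). No treated library of these 3 genes came near a control. MRPS27 fell by 1.09 (SE 0.04), MRPL23, near the polypeptide exit, by 1.08 (SE 0.04) and MRPL24 by 1.08 (SE 0.04) on the log2 scale.

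A minority rose with GSK-J4, and 5 of the 6 largest increases were in large-subunit genes, which make up 50 of the 76. MRPL49, a mitochondria-specific protein, stood at 81.6 and 80.6 CPM in J4-control and at 134 and 131 in J4-2uM, which is 0.71 on the log2 scale (SE 0.03, edgeR adjusted p = 4.137e-10). MRPL38 rose by 0.61 (SE 0.05), MRPL55 by 0.55 (SE 0.04), MRPL41 by 0.51 (SE 0.05), MRPL10 by 0.47 (SE 0.04) and MRPS18C by 0.42 (SE 0.04) on the log2 scale. In MRPL38, 37.5% of exon bases are shared with another gene on the same strand. The 3 genes named MRPS18 gave different values. They are related to each other and to bacterial S18, but only MRPS18C was counted among the genes with a bacterial counterpart, and MRPS18A and MRPS18B among those specific to mitochondria. MRPS18C rose from 30.5 and 31.1 to 41.7 and 41.1 CPM, MRPS18B fell by 0.10 (SE 0.03) and MRPS18A fell by 0.22 (SE 0.04) on the log2 scale.

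**Figure D3:**
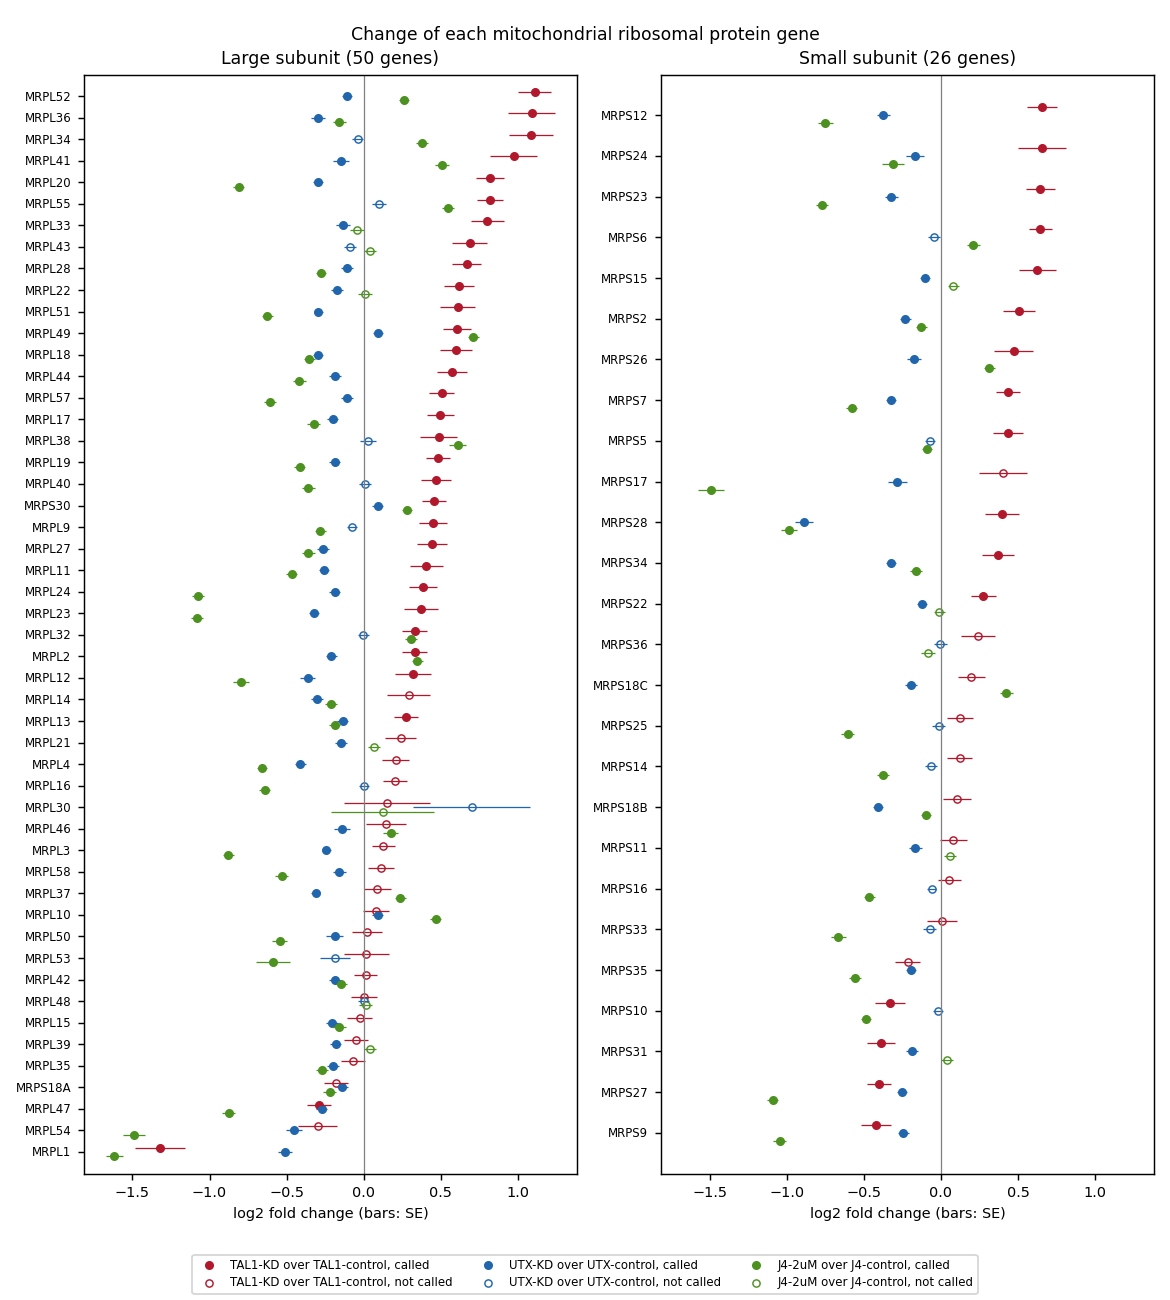
Log2 fold change (x axis, bars are SE) of each of the 76 genes (y axis, ordered by the TAL1-labelled comparison) in the 3 comparisons, for the large (left) and small (right) subunit; filled points passed the edgeR test. Most TAL1 points lie right of 0, and most UTX and GSK-J4 points lie left of it.

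Setting the comparisons side by side, 22 genes were higher in the TAL1-labelled comparison and lower in both others, and 13 were called in the UTX and GSK-J4 comparisons only, as lower. Of the 16103 genes tested in all 3, 4.18% had the first pattern and 7.05% the second, against 28.9% and 17.1% of the 76. The 3 comparisons share no control libraries. MRPL20 stood at 40.4 and 41.9 CPM in TAL1-control and 68.0 and 77.6 in TAL1-KD. It went from 103 and 97.7 to 82.2 and 81.0 CPM in the UTX-labelled comparison and from 89.5 and 90.2 to 51.7 and 50.7 with GSK-J4. MRPL20 was thus lower in TAL1-control than in either other control group, and no pair of groups overlapped within a comparison. The same directions were called for MRPS12 (0.66, -0.37 and -0.75), MRPS23 (0.65, -0.32 and -0.77), MRPL51 (0.61, -0.29 and -0.63), MRPL57 (0.51, -0.11 and -0.61) and MRPS7 (0.44, -0.33 and -0.58, log2 fold changes in the order TAL1, UTX and GSK-J4). MRPL44, needed for large-subunit assembly, followed them with 0.57, -0.18 and -0.42. MRPL12, of the L7/L12 stalk, had 0.32, -0.36 and -0.80, with 68.2% of its exon bases shared with another gene on the same strand.

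Testing the difference of the responses in 1 model, 55 of 76 genes had a more positive response in the TAL1 than in the UTX comparison and 2 a more negative one. Over all genes these shares were 25.0% and 25.1% (edgeR interaction test). Between the TAL1 and GSK-J4 comparisons the counts were 54 and 2, against 26.3% and 27.6% of all genes. Between UTX and GSK-J4 they were 33 and 24, against 30.2% and 28.3%. The response of MRPS28 differed by 1.32 (SE 0.11) between TAL1 and UTX, and that of MRPL20 by 1.66 (SE 0.10) between TAL1 and GSK-J4, on the log2 scale. For MRPS28 the UTX and GSK-J4 responses were -0.89 and -0.99, and their difference of 0.09 (SE 0.08) did not pass the test (edgeR adjusted p = 0.363). Each model takes 1 spread per gene for both comparisons. The edgeR estimate of spread between replicates was 8.40% in the TAL1, 2.30% in the UTX and 2.69% in the GSK-J4 comparison. In the model of TAL1 and UTX it was 5.97%. The SEs and calls of differences with TAL1 may therefore be too confident.

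Calls in 1 direction in all 3 comparisons were made for 6 genes. MRPL1, MRPL47, MRPS27 and MRPS9 were lower in all 3 comparisons, and MRPL49 and MRPS30 were higher in all 3. Over all genes these shares were 6.98% lower and 8.02% higher, against 5.26% and 2.63% of the 76. By the sign of the fold change alone, 10 of the 76 were below 0 and 6 above 0 in all 3, against 20.1% and 21.0% of all genes. MRPS27 stood at 79.0 and 83.3 CPM in TAL1-control and 60.2 and 62.7 in TAL1-KD. It went from 153 and 154 to 131 and 126 CPM in the UTX-labelled comparison and from 164 and 164 to 78.8 and 74.9 with GSK-J4. In each comparison both treated libraries of MRPS27 were below both controls. MRPS30, a large-subunit protein, went from 40.6 and 41.8 to 55.4 and 57.4, from 62.0 and 60.9 to 64.0 and 67.0, and from 61.4 and 61.2 to 73.2 and 75.8 CPM. MRPL30, MRPL48 and MRPS36 passed the test in none of the 3, as did 8.95% of all genes. MRPL48 had log2 fold changes of 0.00, 0.00 and 0.01 with SEs of 0.08, 0.04 and 0.04. MRPS36 had 0.24, -0.01 and -0.08. MRPL48 and MRPS36 are named here after their values were seen.

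**Figure D4:**
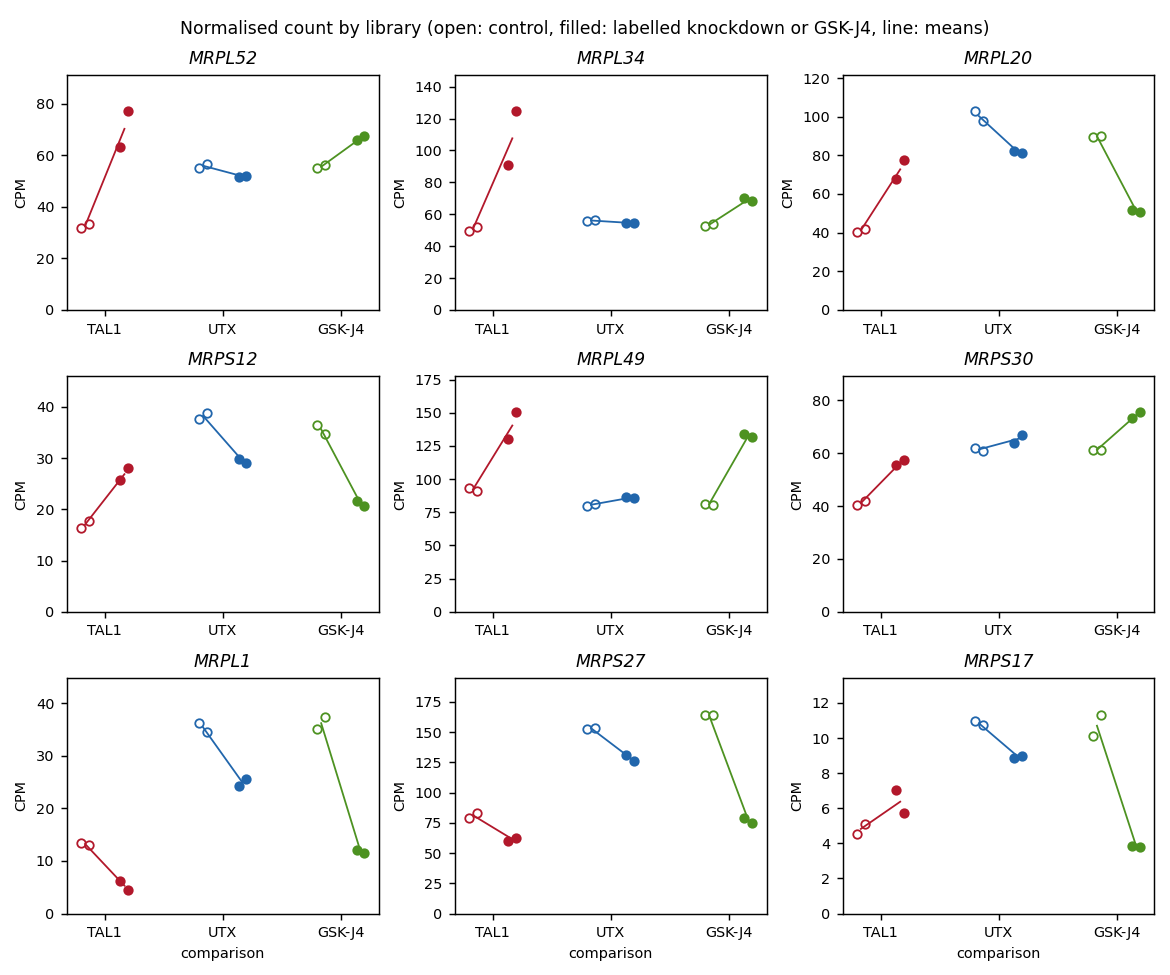
Normalised count (y axis, CPM from 0) by comparison (x axis) for 9 genes; open points are control libraries, filled points are the labelled knockdown or GSK-J4 libraries, and lines join the means of 2. MRPL20 and MRPS12 rise in the TAL1-labelled comparison and fall in the others. MRPL49 and MRPS30 rise in all 3, only slightly in the UTX-labelled one, and MRPL1 and MRPS27 fall in all 3.

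Across the 76 genes, the log2 fold changes in the UTX and GSK-J4 comparisons had r = 0.536 (rho = 0.546), those in TAL1 and GSK-J4 r = 0.411 (rho = 0.272), and those in TAL1 and UTX r = 0.129 (rho = 0.107). These are descriptions over genes measured in the same libraries. With GSK-J4, MRPL1 had the lowest and MRPL49 the highest value of the 76.

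**Figure D5:**
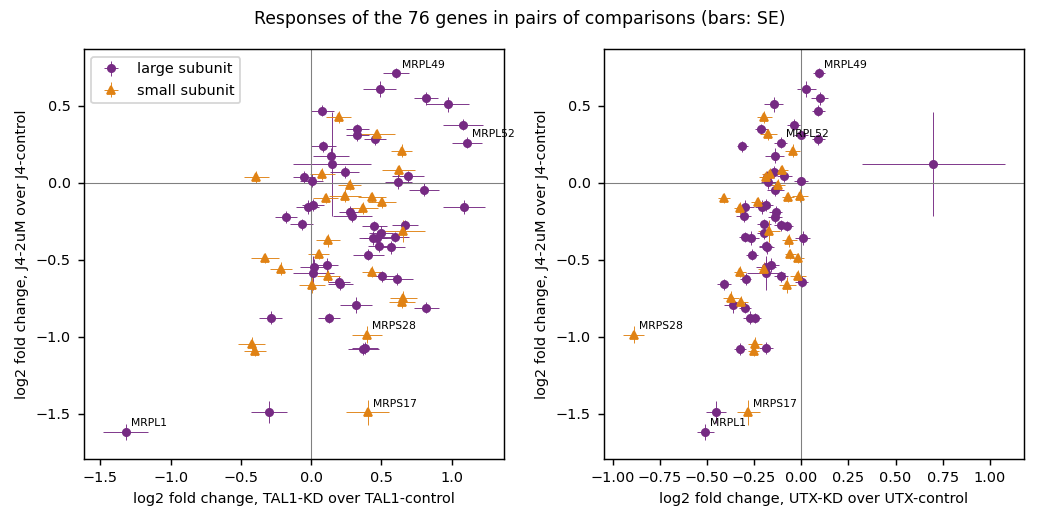
Log2 fold change with GSK-J4 (y axis) against that in the TAL1-labelled (left) and UTX-labelled (right) comparison for the 76 genes, with SE bars; circles are large-subunit and triangles small-subunit genes. The single point far right in the UTX panel, at 0.70, is MRPL30, which has few reads.

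Promoter sequence was examined because many of these genes moved together. Housekeeping mitochondrial genes are known to be driven by NRF1, by ETS-family factors such as GABPA and by YY1. Windows of 250 bases before the first listed transcription start were taken from RefSeq (GRCh38.p14) and matched for 67 of the 76 genes. Of these windows 21 lie wholly inside the gene as GENCODE 29 annotates it on the same build, those of MRPL1 and MRPS12 among them, so the window is not always before the gene's outermost start. Which start was used in these cells was not tested. Searched on both strands, the ETS letters CCGGAAG stood in 22 of 67 windows (32.8%), against 13% of 13697 protein-coding genes, and the YY1 letters AAGATGGC in 5 (7.46%), against 1.49%. The NRF1 core letters GCGCATGC stood in 6 (8.96% against 4%), the E-box CACGTG in 5 (7.46% against 8.17%) and CCAAT in 18 (26.9% against 34.6%). None of the 5 motifs contains another. The NRF1 core followed by GC, which makes it a palindrome of 10 bases, stood in 1 window (1.49% against 1.61%). That longer form was searched first and the core afterwards, so the share depends on how many letters are asked for. The ETS letters stood in 11 of 37 windows of genes higher in the TAL1-labelled comparison and in 11 of 30 of the others. They stood in 13 of 44 windows of genes lower with GSK-J4, in 3 of 13 of those higher and in 6 of 10 of those not called. A match is a description of the letters and does not show binding.

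The windows of 5 genes that stand for the patterns above are shown 5′ to 3′ on the gene's strand, with matches to any of the 5 motifs in capitals. They are the largest TAL1-labelled increase (MRPL52) and 2 genes of the pattern higher, lower and lower (MRPL20 and MRPS12). The others are 1 gene each called higher (MRPL49, only slightly in the UTX-labelled comparison) or lower (MRPL1) in all 3 comparisons.
MRPL52 (chr14:22829637-22829886, plus strand): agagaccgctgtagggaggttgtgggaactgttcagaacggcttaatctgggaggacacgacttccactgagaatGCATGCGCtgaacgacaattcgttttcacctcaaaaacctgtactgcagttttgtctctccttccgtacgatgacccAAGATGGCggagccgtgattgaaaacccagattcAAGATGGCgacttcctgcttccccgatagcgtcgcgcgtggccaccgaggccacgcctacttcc
MRPL20 (chr1:1407294-1407543, minus strand): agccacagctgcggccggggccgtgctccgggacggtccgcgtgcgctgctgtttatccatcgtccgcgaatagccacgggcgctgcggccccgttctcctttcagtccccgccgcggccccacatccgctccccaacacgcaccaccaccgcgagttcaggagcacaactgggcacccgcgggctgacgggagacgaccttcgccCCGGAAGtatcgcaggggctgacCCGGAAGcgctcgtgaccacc
MRPS12 (chr19:38930694-38930943, plus strand): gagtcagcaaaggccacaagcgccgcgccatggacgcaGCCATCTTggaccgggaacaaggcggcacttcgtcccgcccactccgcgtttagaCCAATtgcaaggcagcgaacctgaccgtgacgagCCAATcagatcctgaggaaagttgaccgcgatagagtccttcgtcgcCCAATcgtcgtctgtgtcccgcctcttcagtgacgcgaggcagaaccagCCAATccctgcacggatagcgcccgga
MRPL49 (chr11:65121933-65122182, plus strand): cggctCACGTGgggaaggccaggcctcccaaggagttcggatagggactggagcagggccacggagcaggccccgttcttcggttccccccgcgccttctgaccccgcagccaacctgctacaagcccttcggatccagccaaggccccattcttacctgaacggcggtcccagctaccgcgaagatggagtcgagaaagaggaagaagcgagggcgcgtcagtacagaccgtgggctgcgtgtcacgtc
MRPL1 (chr4:77862580-77862829, plus strand): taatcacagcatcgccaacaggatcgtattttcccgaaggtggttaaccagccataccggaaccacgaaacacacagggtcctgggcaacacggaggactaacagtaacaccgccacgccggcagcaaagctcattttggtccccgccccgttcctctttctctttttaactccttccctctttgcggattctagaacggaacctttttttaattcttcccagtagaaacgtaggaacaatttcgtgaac
MRPL52 holds the NRF1 core letters on the opposite strand at 175 bases before the start, and the YY1 letters at 98 and 64. MRPL20 holds the ETS letters at 44 and 21 bases before its start. MRPS12 holds 4 CCAAT matches on the gene's strand and 1 YY1 match on the opposite strand. MRPL49 holds 1 E-box, and MRPL1 holds none of the 5. The windows of MRPL46 and MRPS11, which are read in opposite directions on chromosome 15, share 181 bases. MRPL46 had log2 fold changes of 0.14, -0.14 and 0.17, and MRPS11 of 0.08, -0.17 and 0.06, in the order TAL1, UTX and GSK-J4. This pair was chosen after its values were seen.

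Other genes of mitochondrial translation were set beside them. The 5 subunits with other names followed the majority, 4 being higher and 0 lower (median 0.595) in the TAL1-labelled comparison and all 5 lower in the UTX-labelled (median -0.154) and GSK-J4 (median -0.153) comparisons. GADD45GIP1, a large-subunit protein, had log2 fold changes of 0.88 (SE 0.12), -0.36 (SE 0.04) and -0.15 (SE 0.04), and DAP3, a small-subunit GTP-binding protein, 0.30 (SE 0.08), -0.15 (SE 0.03) and -0.47 (SE 0.03). Among 16 translation factors the TAL1-labelled comparison had 4 higher and 6 lower (median 0.07), 1 rose and 11 fell in the UTX-labelled one (median -0.131) and 2 rose and 14 fell with GSK-J4 (median -0.534). LRPPRC, which stabilises mitochondrial mRNAs, had -0.50 (SE 0.10), -0.56 (SE 0.03) and -1.22 (SE 0.04), while its partner SLIRP had 1.00 (SE 0.12), -0.33 (SE 0.04) and -0.78 (SE 0.04). Of 22 assembly factors tested, 7 rose and 5 fell, 3 rose and 10 fell, and 6 rose and 15 fell, in the same order of comparisons. Their medians were 0.052, -0.08 and -0.372 on the log2 scale, against -0.022, 0.009 and 0.008 over all genes. Calls among all genes tested were 26.3% higher and 27.9% lower for TAL1, 25.2% and 25.3% for UTX, and 37.9% and 36.9% for GSK-J4. Whether these lists differ from all genes was not tested.

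Shared exons and pseudogenes bear on which reads were counted for a gene. Named pseudogenes exist for 32 of the 76. In the TAL1-labelled comparison 12 of these 32 (37.5%) rose (median log2 fold change 0.138), and 29 of the 44 (65.9%) without one (median 0.402). Of all genes tested, 26.3% rose there. With GSK-J4 the medians were -0.152 with and -0.339 without a pseudogene, and in the UTX-labelled comparison -0.17 and -0.186. The part of pseudogenes in these values was not tested. On the same strand, 16 of the 76 share exon bases with another gene. Among the 35 genes that share no exon base on either strand, the TAL1-labelled comparison had 16 higher and 3 lower. In the UTX-labelled one 2 rose and 26 fell, and 6 rose and 22 fell with GSK-J4. The shares of all genes, higher and lower, were 26.3% and 27.9% in the TAL1-labelled comparison. They were 25.2% and 25.3% in the UTX-labelled one and 37.9% and 36.9% with GSK-J4. In the authors' deposited table the adjusted p-values gave 41 higher and 6 lower, 0 higher and 50 lower, and 14 higher and 49 lower, and none was opposite to the call made here.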

How the data were processed

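Stranded mRNA libraries (TruSeq) of Jurkat cells were sequenced. The hg19 build, DESeq2 (no version), HTSeq 0.6.1p1 and TopHat2 2.0.12 are named per the submitters' processing notes, and the annotation, strand setting and handling of multi-mapping reads are not given in the sources used here. The authors deposited raw read counts per gene for each library, 1 table per comparison. The deposited tables also hold the authors' mean signal (baseMean), log2 fold changes with standard errors, test scores (stat) and p-values. All other values were recomputed from the counts with R 4.3.3 and edgeR 4.0.16. Genes were filtered with filterByExpr, scaled by TMM and tested with the two-sided quasi-likelihood test on the 4 libraries of a comparison, Benjamini-Hochberg adjusted over all genes, threshold 0.05. Differences between responses were tested as interactions over 8 libraries. All 76 genes passed the filter in each comparison. Symbols, lengths, GC content and shared exon bases came from GENCODE 29 (GRCh38), so no coordinates are given from the hg19 files. The procedure was tested on simulated data. Both groups of a comparison had the same spread there, so the wider spread of TAL1-KD was not covered.

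Genes named with values were the 6 largest called changes per direction and comparison, up to 6 with opposite or equal calls, the 4 highest and lowest levels, set role examples, the 4 largest differences per pair of comparisons, and up to 4 called genes of each other list per comparison. The genes, lists, motifs and windows shown were chosen with earlier results of these data known. Alternatives covered filters, size factors, DESeq2 1.42.0, a replicate block, removal of GC and length trends, a 12-library fit and leaving out each library.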

Additional observations from a re-analysis of the deposited data

Results flagged for a closer look

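These values are differences between 2 responses on the log2 scale, the first minus the second, each past the threshold of the edgeR interaction test; the 4 with the largest difference per pair of comparisons are given. Between the TAL1-labelled and UTX-labelled comparisons they were 1.42 for MRPL36, 1.32 for MRPS28, 1.25 for MRPL52 and 1.16 for MRPL34. Between the TAL1-labelled and GSK-J4 comparisons they were 1.92 for MRPS17, 1.66 for MRPL20, 1.49 for MRPL24 and 1.48 for MRPL23. The TAL1 response of MRPS17 itself did not pass the test (0.40, SE 0.15, edgeR adjusted p = 0.0595). Between the UTX-labelled and GSK-J4 comparisons they were 1.20 for MRPS17, 1.10 for MRPL1, 1.03 for MRPL54 and 0.88 for MRPL24, all 4 lower in both comparisons and further down with GSK-J4.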

How the results depend on the processing

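With 2 libraries per group, 1 library can decide a count. With each library left out in turn, the TAL1-labelled comparison gave 25 to 51 higher, 1 to 9 lower and a median of 0.26 to 0.42. The UTX-labelled one gave 0 to 3 higher, 45 to 55 lower and a median of -0.20 to -0.16. GSK-J4 gave 14 to 17 higher and 46 to 50 lower. More negative responses in TAL1 than in UTX numbered 1 to 4, and than in GSK-J4 1 to 6.

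The TAL1 median of 0.33 became 0.30 with at least 1 CPM in 2 libraries, 0.24 with GC and length trends removed and 0.23 with a replicate block added to that. The UTX median of -0.18 became -0.13 with the trends removed, -0.13 with the block added and -0.16 in the 12-library fit. That fit gave 0 higher and 33 lower for UTX, and the DESeq2 Wald test 0 higher. With trends removed, 4 genes had a more negative response in TAL1 than in GSK-J4.

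Among named genes, 1252 values kept their direction and call, 79 lost the call, 31 gained it and 4 reversed. The reversals came with trends removed, without and with the block: MRPL23 in TAL1 (-0.02 in both) and MRPL36 with GSK-J4 (0.04 in both). The MRPL12 increase in TAL1 lost its call in 6 settings.

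Replicate numbers are shared by the groups but no label says that they pair libraries. Same-numbered libraries deviated with a correlation of 0.193 in TAL1, -0.139 in UTX and -0.040 in GSK-J4. The replicate block gave 43 higher and 6 lower in TAL1, 1 and 54 in UTX, and 15 and 49 with GSK-J4. A crossed pairing for UTX, added after the data were seen, gave 4 higher and 56 lower.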
